A study of Mus musculus with 9 samples.

Results

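The 10 genes described here handle iron and heme in mouse alveolar macrophages, the resident phagocytes of the lung air spaces. They were taken from a list of names (Slc48a1, Hmox1, Tfrc, Slc11a2, Slc11a1, Fth1, Ftl1, Slc40a1, Aco1 and Ireb2) that sets no threshold on measured values, though it was drawn up when earlier results of these data were known. All 10 were present among the 12003 genes of the expression table. The study profiled polyadenylated RNA of untreated mice with and without the Vhl gene in cells that express CD11c. Vhl encodes the protein through which a ubiquitin ligase recognizes hypoxia-inducible factors (HIF) and sends them to the proteasome when oxygen is present.

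There were 3 genotypes with 3 libraries each. Vhl knockout mice carried loxP-flanked Vhl on both alleles together with 1 CD11c-Cre transgene allele, Vhl(flox/flox) / CD11c (cre/+). Cre control mice had the same transgene with wild-type Vhl, Vhl(+/+) / CD11c (cre/+). Floxed control mice had the loxP-flanked alleles without Cre, Vhl(flox/flox) / CD11c (+/+). All mice were 8 to 12 weeks old and had a C57BL/6 background. Each library was made from a pool of 5 to 7 mice, so the spread between libraries is a spread between pools. The CD11c promoter is active in alveolar macrophages and also in dendritic cells, and the lavage cells were selected with beads against CD11c, a step that retains both cell types.

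Macrophages take in iron bound to transferrin through the transferrin receptor and receive heme from engulfed red cells. Heme leaves the phagolysosome through HRG1 and is split by heme oxygenase, which frees its iron. Iron that is not used is stored in ferritin, a shell of heavy and light chains, or leaves the cell through ferroportin, the exporter that the hormone hepcidin removes from the surface. Iron regulatory proteins bind hairpins called iron responsive elements in messenger RNAs of these genes when iron is scarce. Bound to the 5′ untranslated region they block translation, and bound to the 3′ untranslated region of the Tfrc messenger they protect it from decay. Alveolar macrophages are known for their exposure to inhaled iron and to red cells that leak into the air space.

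The hairpins are shown because matches to the pattern searched tie 4 of the 10 genes to one regulatory system. The transcripts of GENCODE M21 were searched for a C, 5 stem bases, the loop CAGTGN in which the last base is not G, and 5 bases that pair with the first stem bases. At least 4 of the 5 pairs had to be Watson-Crick pairs and a G-T pair was allowed for the rest. The loop is in capitals, with the stem and flanking bases in lower case. Positions are on GRCm38 and sequences read 5′ to 3′ along the transcript.
Fth1, 5′ untranslated region, chr19:9982732-9982760, plus strand: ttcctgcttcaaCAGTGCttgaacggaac
Ftl1, 5′ untranslated region, chr7:45459779-45459807, minus strand: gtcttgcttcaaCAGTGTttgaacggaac
Slc40a1, 5′ untranslated region, chr1:45925465-45925493, minus strand: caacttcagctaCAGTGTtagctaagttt
Tfrc, 3′ untranslated region, chr16:32631219-32631247, plus strand: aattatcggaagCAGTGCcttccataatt
Tfrc, 3′ untranslated region, chr16:32631598-32631626, plus strand: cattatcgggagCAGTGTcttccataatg
Tfrc, 3′ untranslated region, chr16:32631663-32631691, plus strand: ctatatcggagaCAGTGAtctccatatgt
Tfrc, 3′ untranslated region, chr16:32631710-32631738, plus strand: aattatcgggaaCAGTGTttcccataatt

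The ferritin chains and ferroportin each had 1 match, upstream of the coding sequence, and Tfrc had 4 matches, all downstream of it. The other 6 members had none in this search. The pattern is strict, and elements with another loop, stem or bulge are missed. A missing match, as for Slc11a2, therefore does not show that a messenger lacks an element, and the count for Tfrc may be incomplete. Of 11276 protein-coding genes of the table, 31 (0.275%) had a match in an untranslated region. A match was found in a 5′ region for 8 genes (0.0709%) and in a 3′ region for 23 genes (0.204%).

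Most of the 10 genes were lower in Vhl knockout macrophages, and none was higher. Slc11a1, ferroportin, heme oxygenase 1, HRG1 and the transferrin receptor showed the largest differences, with knockout means between 22.7% and 50.9% of the mean of all 6 control libraries. Slc11a2, Aco1 and Fth1 were lower by smaller amounts, and Ftl1 and Ireb2 did not pass the test. The test was limma on log2(normalized reads + 1), with p-values adjusted over all 12003 genes and a threshold of 0.05. Against both controls together it called 8 of the 10 genes lower, where 20.2% of all genes were called lower, and 0 higher, where 19.7% of all genes were called higher. In either direction 39.8% of the genes in the table were called. The median log2 fold change of the 10 genes was -0.74, and that of all 12003 genes was -0.0022. In 7 of the 10 genes all 3 knockout libraries lay below all 6 control libraries, a pattern found in 18.5% of all genes.

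The targeted gene was low in each knockout library. Vhl had 2.02, 2.14 and 2.52 normalized reads in Vhl knockout libraries, against 24.0, 21.9 and 25.3 in Cre controls and 21.0, 14.9 and 18.4 in floxed controls. Normalized reads are reads scaled to library size by the authors, without correction for gene length, and the libraries held 18201116 to 25861174 reads. All 14 alveolar macrophage markers examined were measured, of which 5 were higher (Chil3, Fabp4, Marco, Pparg and Cidec) and 4 lower (Siglecf, Fabp5, Car4 and Krt79) in the knockout. Of all genes, 19.7% were called higher and 20.2% lower. In bulk RNA, fewer cells of a type and less RNA per cell cannot be told apart.

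**Figure D1:**
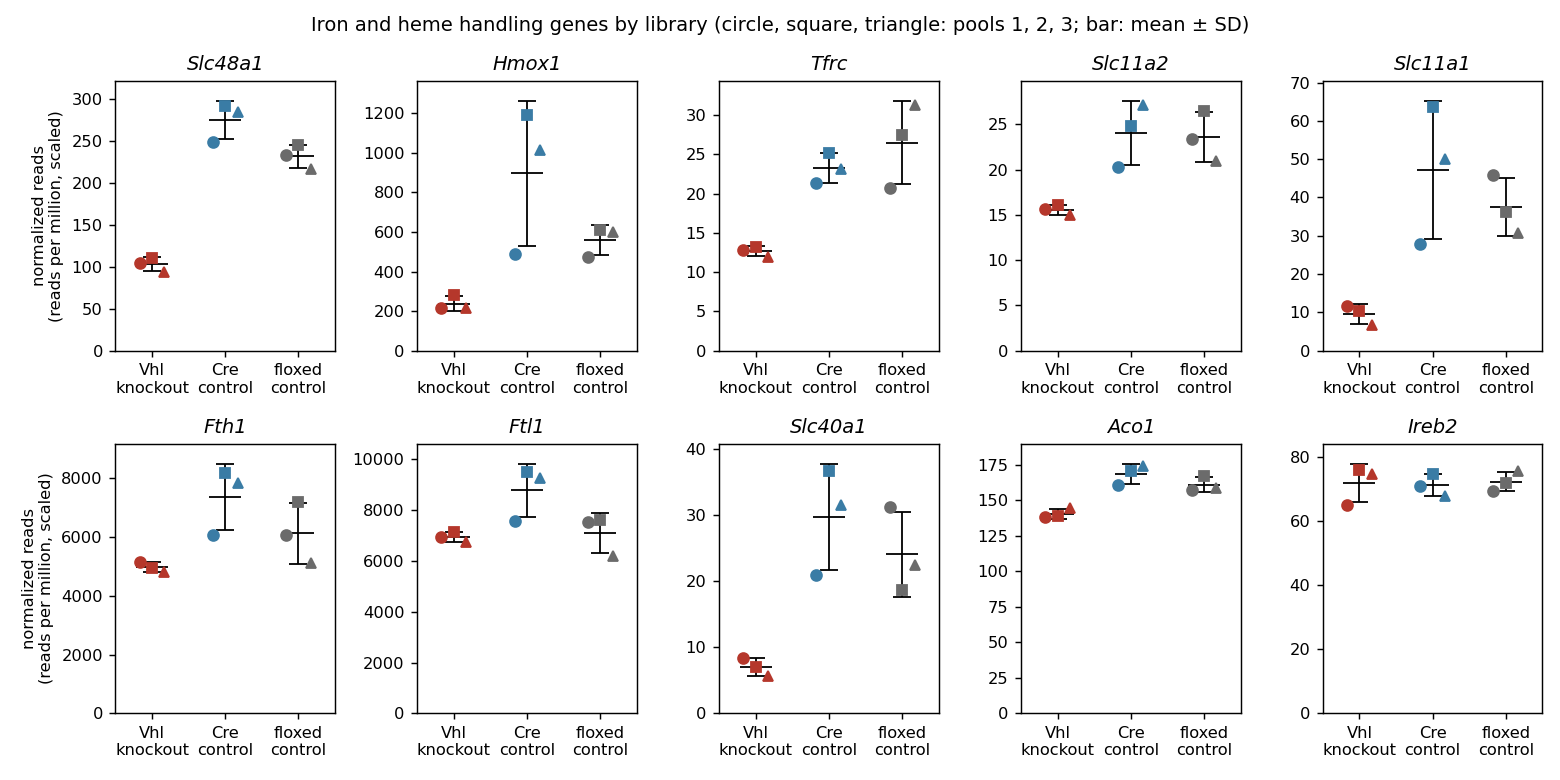
Normalized reads (y axis, linear, starting at 0) of the 10 genes in each of the 9 libraries, with Vhl knockout, Cre control and floxed control from left to right. Circles, squares and triangles are pools 1, 2 and 3, and bars give the mean ± SD of 3 pools. In 7 panels the 3 knockout points lie below all 6 control points, and in those of Fth1, Ftl1 and Ireb2 they overlap them.

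The transcripts of a heme transporter and of the inducible heme oxygenase were lower. Slc48a1 encodes HRG1, the transporter that carries heme from the phagolysosome into the cytosol, and lies on the plus strand at chr15:97778520-97792692. It had 104, 111 and 94.3 normalized reads in Vhl knockout libraries, against 249, 291 and 284.5 in Cre controls and 233, 245 and 217 in floxed controls. The knockout and control libraries were far apart relative to the spread within each group. The knockout mean was 40.7% of the control mean, with a log2 fold change of -1.28 ± 0.0717 (SE) and a limma adjusted p of 5.97e-07. Among the 10 genes this was the smallest adjusted p, although 3 others had a larger fold change.

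Hmox1 encodes heme oxygenase 1, the inducible enzyme that opens the heme ring and frees iron, carbon monoxide and biliverdin (chr8:75093621-75100589, plus strand). It had 217.5, 283 and 214 normalized reads in Vhl knockout libraries, against 488, 1190 and 1013 in Cre controls and 475, 612 and 599 in floxed controls. The 3 knockout libraries were the lowest of the 9, and Cre control 1 stood with the floxed controls and not with the other two Cre controls. The difference was -1.53 ± 0.243 on the log2 scale (SE, limma adjusted p 0.000752). Hmox2, the constitutive heme oxygenase, averaged 93.1 ± 2.81 normalized reads in the knockout, 99.4 ± 6.78 in Cre controls and 86.4 ± 6.265 in floxed controls (SD, n = 3 each) and did not pass the test (limma adjusted p 0.930). Within each library the ratio of Hmox1 to Hmox2 reads was 2.26, 3.08 and 2.35 in the knockout, against 5.29, 11.9 and 9.59 in Cre controls and 5.50, 6.61 and 7.47 in floxed controls. The ratio is not corrected for transcript length, and its knockout values lay below those of both controls without overlap.

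Iron import had 3 members. Tfrc encodes the transferrin receptor, which brings iron-loaded transferrin into endosomes (chr16:32608920-32632794, plus strand). It had 12.8, 13.2 and 12.0 normalized reads in Vhl knockout libraries, against 21.4, 25.2 and 23.2 in Cre controls and 20.8, 27.4 and 31.3 in floxed controls. The knockout libraries were close to one another and each was under every control library. Tfrc differed by -0.91 ± 0.115 on the log2 scale (SE, limma adjusted p 0.000179). This is the messenger with 4 matches to the hairpin pattern in its 3′ untranslated region.

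Slc11a2 encodes DMT1, the divalent metal transporter that moves iron out of endosomes (chr15:100387898-100425072, minus strand). Its values were 15.7, 16.1 and 14.95 normalized reads in Vhl knockout libraries, against 20.2, 24.8 and 27.1 in Cre controls and 23.4, 26.5 and 20.9 in floxed controls. The knockout values spanned less than 2 normalized reads and stayed under the lowest control. Its difference on the log2 scale was -0.58 ± 0.101 (SE, limma adjusted p 0.00134), a knockout mean of 65.3% of the control mean.

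Slc11a1 encodes NRAMP1, the metal transporter of the phagosome membrane, of which C57BL/6 mice are known to carry a loss-of-function allele (chr1:74375195-74386062, plus strand). Its RNA had 11.7, 10.5 and 6.68 normalized reads in Vhl knockout libraries, against 27.8, 63.5 and 50.1 in Cre controls and 45.8, 36.1 and 30.7 in floxed controls. All knockout libraries were below the lowest control, Cre control 1. With -2.005 ± 0.249 on the log2 scale (SE, limma adjusted p 0.000162) it was the largest difference of the 10, and its knockout mean was 22.7% of the control mean. The ratio of Slc11a1 to Slc11a2 reads was 0.748, 0.651 and 0.447 in the knockout, against 1.375, 2.56 and 1.85 in Cre controls and 1.96, 1.36 and 1.47 in floxed controls.

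Ferritin transcripts were the most abundant of the set and differed least among the storage and transport genes. Fth1 encodes the heavy chain, which oxidizes iron as it enters the shell (chr19:9980598-9985098, plus strand). It had 5155, 4945 and 4816 normalized reads in Vhl knockout libraries, against 6086, 8186 and 7852 in Cre controls and 6068, 7201 and 5124 in floxed controls. Knockout library 1 lay just above floxed control 3, so the groups overlapped. The log2 fold change against both controls was -0.42 ± 0.137 (SE, limma adjusted p 0.0326). The adjusted p went to as much as 0.114 when single libraries were left out, and the call was lost without any 1 of the 3 knockout libraries, Cre control 2, Cre control 3 or floxed control 2.

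Ftl1 encodes the light chain, which holds the mineral core (chr7:45457944-45459884, minus strand). It had 6916, 7139 and 6731 normalized reads in Vhl knockout libraries, against 7575, 9498 and 9236 in Cre controls and 7530, 7587 and 6186 in floxed controls. The knockout values lay within the range of the floxed controls and below all Cre controls. The log2 fold change was -0.18, with a 95% interval of -0.45 to 0.09, and did not pass (limma adjusted p 0.260). The ratio of heavy to light chain reads was 0.745, 0.693 and 0.716 in the knockout, against 0.804, 0.862 and 0.850 in Cre controls and 0.806, 0.949 and 0.828 in floxed controls. The ratio was lower in each knockout library than in every control library. Both chains have near-identical copies in the genome. Counted by name alone, the table held 0 of 11 other genes whose symbols begin with Fth and 1 of 3 with Ftl. Their sequences were not compared, so not all of these need be close copies. The measured Ftl gene, Ftl1-ps1, averaged 2.67 normalized reads in the knockout, 2.15 in Cre controls and 2.05 in floxed controls. Values of both chains are uncertain to the extent that reads were shared with copies.

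Ferroportin, the only known iron exporter of mammalian cells, is encoded by Slc40a1 (chr1:45908068-45926523, minus strand). It had 8.32, 7.04 and 5.64 normalized reads in Vhl knockout libraries, against 20.9, 36.8 and 31.5 in Cre controls and 31.3, 18.7 and 22.4 in floxed controls. The highest knockout value was under the lowest control value, that of floxed control 2. The knockout mean was 26.0% of the control mean, with a log2 fold change of -1.78 ± 0.198 (SE, limma adjusted p 7.90e-05). Both the import receptor Tfrc and the exporter Slc40a1 were thus lower in the same knockout libraries.

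The iron sensors themselves varied little. Aco1 encodes IRP1, the cytosolic aconitase that turns into an RNA-binding protein when it loses its iron-sulfur cluster (chr4:40143081-40198338, plus strand). It had 138.5, 138.7 and 144.7 normalized reads in Vhl knockout libraries, against 161, 171 and 174 in Cre controls and 157, 167 and 159 in floxed controls. The knockout libraries did not overlap those of either control, and the difference was small, -0.23 ± 0.0469 on the log2 scale (SE, limma adjusted p 0.00364), or 85.3% of the control mean.

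Ireb2 encodes IRP2, the partner of IRP1 that is degraded when iron is plentiful (chr9:54863789-54912530, plus strand). It had 65.1, 76.0 and 74.7 normalized reads in Vhl knockout libraries, against 70.8, 74.7 and 67.9 in Cre controls and 69.5, 71.8 and 75.6 in floxed controls. The 3 groups covered the same range. The log2 fold change was 0.0019, with a 95% interval of -0.14 to 0.14 (limma adjusted p 0.986), so differences beyond that interval were not found. The Aco1 to Ireb2 ratio of reads was 2.13, 1.82 and 1.94 in the knockout, against 2.27, 2.29 and 2.57 in Cre controls and 2.26, 2.32 and 2.10 in floxed controls, with floxed control 3 under knockout library 1.

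Levels of different genes can be set beside each other only per length of transcript. Per kilobase of the principal transcript, the knockout means were 7158 normalized reads for Ftl1, 5352 for Fth1, 152 for Hmox1, 40.65 for Slc48a1, 36.7 for Aco1, 12.5 for Ireb2, 5.145 for Slc11a2, 4.155 for Slc11a1, 2.59 for Tfrc and 2.08 for Slc40a1. The ferritin chains stood far above the rest, and in knockout libraries the ranges of Slc48a1 and Aco1, of Slc11a2 and Slc11a1, and of Tfrc and Slc40a1 overlapped. In floxed controls the order per kilobase was Ftl1 at 7336, Fth1 at 6600, Hmox1 at 358, Slc48a1 at 91.3, Aco1 at 42.0, Slc11a1 at 16.2, Ireb2 at 12.5, Slc11a2 at 7.80, Slc40a1 at 7.16 and Tfrc at 5.41. Ranges of Ftl1 and Fth1 overlapped there, as did those of Slc11a2 and Slc40a1 and those of Slc40a1 and Tfrc. In Cre controls Slc11a1 averaged 20.4 per kilobase and Ireb2 12.3, with overlapping ranges. Slc11a1 was thus above Ireb2 on average in both kinds of control and below it in the knockout.

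**Figure D2:**
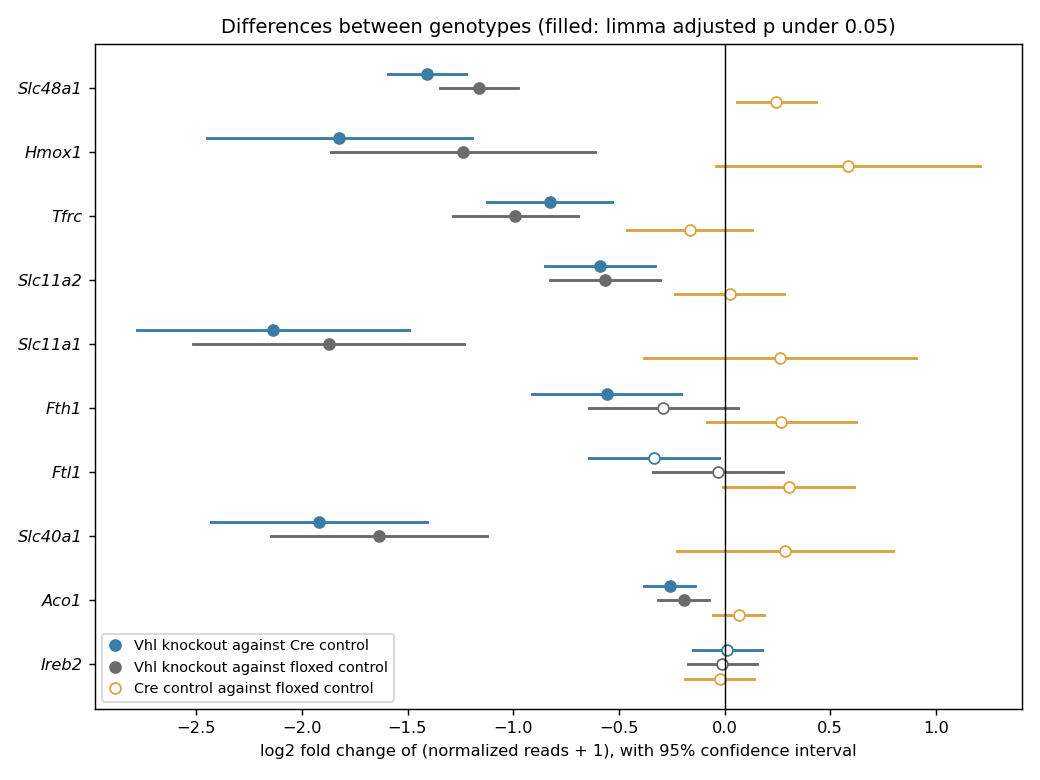
Log2 fold changes of normalized reads + 1 (x axis) for the 10 genes, with 95% intervals, for Vhl knockout against Cre control, Vhl knockout against floxed control and Cre control against floxed control. Filled points have a limma adjusted p under 0.05. Of the 10 genes, 8 are filled against Cre controls, 7 against floxed controls and none between the controls.

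Each control alone gave a similar picture. Against Cre controls, which share the transgene with the knockout, 8 of the 10 genes were called lower, where 17.7% of all genes were, and the median log2 fold change of the 10 was -0.71. Against floxed controls, which share the alleles, 7 of the 10 were called lower, where 16.8% of all genes were, and the median was -0.78. These comparisons share the knockout libraries and are not independent. The gene that separated them was Fth1, at -0.56 against Cre controls (limma adjusted p 0.0215) and -0.29 against floxed controls (limma adjusted p 0.187). The Fth1 call against Cre controls was lost without any 1 knockout library, Cre control 2 or Cre control 3. Ftl1 stood at -0.33 against Cre controls (limma adjusted p 0.0903) and at -0.03 against floxed controls (limma adjusted p 0.888). The Ftl1 difference from Cre controls passed with edgeR on the recovered reads (adjusted p 0.0492), with DESeq2 (adjusted p 0.00409) and in limma without Cre control 1 (adjusted p 0.0483).

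Hmox1 was -1.82 against Cre controls and -1.24 against floxed controls on the log2 scale, and Slc48a1 was -1.41 and -1.16. Slc40a1 stood at -1.92 against Cre controls and -1.63 against floxed controls. Slc11a1 stood at -2.14 against Cre controls and -1.87 against floxed controls. Tfrc alone among the 5 genes with the largest differences was nearer to the Cre controls, at -0.83, than to the floxed controls, at -0.99. Aco1 was -0.26 against Cre controls and -0.19 against floxed controls, and the call against floxed controls (limma adjusted p 0.0203) was lost without knockout library 1, knockout library 2 or floxed control 2.

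Between the control genotypes no iron or heme gene passed. Of the 10 genes, 0 were called in Cre controls against floxed controls by limma, by edgeR or by DESeq2, where limma called 0.167% of all genes. At an unadjusted limma p under 0.05 the count was 1 of 10, where 8.01% of all genes had such a p. That gene was Slc48a1, at 0.25 on the log2 scale with a limma adjusted p of 0.573. Hmox1 differed by 0.58 on the same scale, with a 95% interval of -0.04 to 1.21 and a limma adjusted p of 0.627. Without Cre control 1 the Hmox1 difference between the controls was 0.97 and passed (limma adjusted p 0.0485). The same contrast tests whether a knockout difference depends on the control used, and for the other 9 genes it did not pass with or without any single library.

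**Figure D3:**
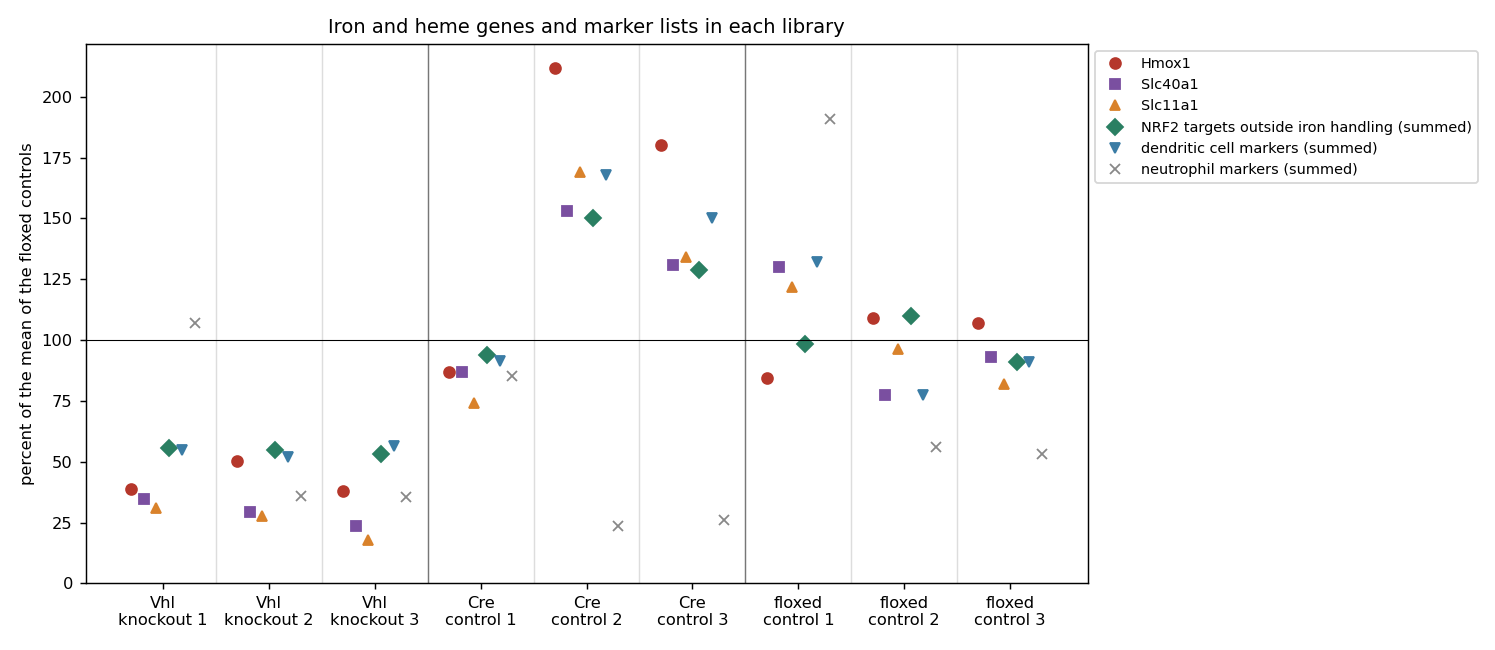
Hmox1, Slc40a1 and Slc11a1 and the summed reads of NRF2 target, dendritic cell and neutrophil marker lists in each library (x axis), each as a percent of the mean of the 3 floxed controls (y axis). Knockout libraries lie between 17.8% and 56.6% for all but the neutrophil list. Cre controls 2 and 3 lie above Cre control 1 for every row except the neutrophil list.

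Libraries of one genotype differed in Hmox1, Slc40a1 and Slc11a1 and also in marker list sums, in the same order for some combinations and not for others. Counts for each marker list stand beside 19.7% of all genes called higher and 20.2% called lower against both controls. Dendritic cell markers were lower in the knockout in 11 of 12 genes and higher in 0, with summed normalized reads of 116, 109 and 119 in Vhl knockout libraries, against 192, 355 and 316 in Cre controls and 277, 163 and 192 in floxed controls. Slc40a1 and Slc11a1 were highest in Cre controls 2 and 3 and, among floxed controls, in library 1, which are also the libraries with the highest dendritic cell sums of their genotypes. In the knockout Slc40a1 and Slc11a1 were highest in library 1, while the dendritic cell sum was highest in library 3. Hmox1 was lowest among floxed controls in library 1, at 475 normalized reads, where the dendritic cell sum was highest. The defining marker Zbtb46 had 1.501, 1.532 and 1.799 normalized reads in Vhl knockout libraries, against 3.10, 6.75 and 5.82 in Cre controls and 6.96, 3.94 and 6.20 in floxed controls, and was at 0 in no library. The part of these cells in the lower iron and heme transcripts was not tested.

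Neutrophil markers, of which 7 of 8 were measured, were called higher in 1 gene and lower in 0, and their sums were highest in library 1 of each genotype. They reached 431, 144 and 143 normalized reads in Vhl knockout libraries, against 341, 94.5 and 104 in Cre controls and 765, 224 and 213 in floxed controls. Red cell markers, of which 4 of 9 were measured, passed in 0 genes, with sums of 37.7, 0.306 and 14.6 in Vhl knockout libraries, against 61.4, 15.2 and 44.8 in Cre controls and 92.4, 13.7 and 13.2 in floxed controls. The part of neutrophil and red cell RNA in these results was not tested. With the 3 libraries numbered 1 left out, 8 of the 10 genes were again called lower against both controls.

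Interstitial macrophage markers also differed. Of 10 such genes 8 were measured, 1 was called higher (Selenop) and 4 lower (C1qa, C1qb, C1qc and Timd4). Their summed normalized reads ranged from 2336 to 2572 in Vhl knockout libraries, against 655 to 792.5 in Cre controls and 650 to 706 in floxed controls. The sum went the other way from the median of the measured genes, which was -0.40 on the log2 scale. Monocyte markers were called higher in 4 and lower in 2 of 9 measured genes, with sums of 294.5 to 326 in Vhl knockout libraries, against 186 to 214 in Cre controls and 209 to 281 in floxed controls. The part of these cells in the results was not tested.

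Lists for RNA handling and epithelial RNA were examined too, beside 39.8% of all genes called in either direction against both controls. Sums of stress genes overlapped between knockout and control libraries, and sums of epithelial markers did not. Of 12 dissociation stress genes 3 were called higher (Jun, Junb and Ier3) and 2 lower (Hspa1a and Hspa1b), with sums of 791, 1031 and 1433 in Vhl knockout libraries, against 581, 769 and 854 in Cre controls and 892, 852 and 1031 in floxed controls. Hspa1a, an inducible heat shock gene, had 4.68, 8.58 and 4.24 normalized reads in Vhl knockout libraries, against 21.25, 103.6 and 74.3 in Cre controls and 34.8, 25.4 and 32.6 in floxed controls, and like Hmox1 it was highest in Cre controls 2 and 3 (limma adjusted p 0.000640). Mitochondrially encoded genes were called lower in 7 and higher in 0 of 13, with a median log2 fold change of -0.70 and sums of 17490 to 24350 in Vhl knockout libraries, against 32060 to 37370 in Cre controls and 24500 to 55540 in floxed controls. Lung epithelial markers, of which 10 of 12 were measured, were called higher in 2 and lower in 2, with sums of 1078 to 1132 in Vhl knockout libraries, against 618 to 906 in Cre controls and 598.5 to 854 in floxed controls. The part of stress, RNA quality and epithelial RNA in the results was not tested.

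Promoters are shown for the import receptor and for the gene with the largest difference, since HIF binds a core written ACGTG or GCGTG. RefSeq promoters of build GRCm38.p6, from 250 bases before to 50 bases after a transcript start, matched 6 of the 10 genes, namely Tfrc, Fth1, Ftl1, Slc11a1, Ireb2 and Aco1. Capitals mark ACGTG or GCGTG on either strand, so a CACGC in capitals is GCGTG on the minus strand.
Tfrc, chr16:32608646-32608945, plus strand: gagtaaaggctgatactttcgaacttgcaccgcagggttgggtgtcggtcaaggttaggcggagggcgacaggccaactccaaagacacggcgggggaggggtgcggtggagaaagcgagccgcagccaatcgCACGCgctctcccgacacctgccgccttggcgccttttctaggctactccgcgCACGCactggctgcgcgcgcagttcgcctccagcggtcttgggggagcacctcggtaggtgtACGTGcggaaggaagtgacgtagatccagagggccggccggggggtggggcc
Slc11a1, chr1:74374953-74375252, plus strand: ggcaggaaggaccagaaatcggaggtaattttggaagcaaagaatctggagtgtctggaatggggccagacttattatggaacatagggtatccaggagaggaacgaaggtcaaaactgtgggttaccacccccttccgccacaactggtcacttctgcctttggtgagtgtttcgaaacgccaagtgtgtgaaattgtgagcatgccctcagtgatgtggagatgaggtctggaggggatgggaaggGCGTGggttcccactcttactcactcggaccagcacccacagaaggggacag

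Each of 2 overlapping Tfrc promoters in the table, of which the upstream one is shown, held 1 ACGTG and 2 GCGTG, and 1 GCGTG was found in that of Slc11a1. A single GCGTG was also found in the promoter of Ftl1 and in 1 of 2 promoters of Fth1, and neither motif in those of Aco1 and Ireb2. The first motif, ACGTG, occurred in 19.6% and the second, GCGTG, in 32.4% of 32851 RefSeq promoters of the same length, and a match is a description of the letters and not a binding site. Among genes called lower, Tfrc and Slc11a1 had a motif, Fth1 had one in 1 of 2 promoters, and Aco1 had none. Among those not called, Ftl1 had a motif and Ireb2 had none. Hmox1, Slc40a1, Slc11a2 and Slc48a1 had no promoter in the set and could not be searched. The part of HIF binding in the differences was not tested.

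Other genes of iron and heme biology moved in both directions. Across 14 lists, 116 of 139 genes outside the 10 were measured, and 21 were called higher and 43 lower against both controls. These lists include NRF2 targets outside iron handling, which supplied 12 of the 43 lower calls and 0 of the higher ones. The called share was 55.2%, beside 39.8% of all genes, and the median log2 fold change was -0.09. Of all genes 19.7% were called higher and 20.2% lower, and these shares stand beside each list below. Of 6 measured genes of the transferrin cycle 3 were called. Steap3, a ferrireductase of the endosome, was higher, with 20.4 ± 2.05 normalized reads in the knockout, 9.23 ± 0.374 in Cre controls and 11.4 ± 2.40 in floxed controls (SD, n = 3 each; log2 fold change 0.93, limma adjusted p 0.000223). Exoc6, an exocyst subunit needed for transferrin recycling in mouse, was lower at -0.23, and Hfe, which encodes a binding partner of the transferrin receptor, at -0.32 (limma adjusted p 0.00690). Among 6 other metal importers the zinc and iron transporter Slc39a8 was higher at 0.60 and the hyaluronan receptor Cd44 lower at -0.20. The Cd44 call was lost without any 1 library other than floxed control 1 or Cre control 2, and that of Exoc6 without knockout library 1 or 2. Those of Hfe, Exoc6 and Cd44 were lost without the libraries numbered 1, and with a pseudocount of 5 the Slc39a8 value was 0.34.

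Ferritin's partners varied little. Of 5 measured storage genes the iron chaperone Pcbp2 was higher at 0.29 (limma adjusted p 0.000943) and Herc2, a ubiquitin ligase that acts on NCOA4, lower at -0.30, a call lost without knockout library 1 or 2, Cre control 2 or 3, or floxed control 2 or 3. Ncoa4, the receptor that delivers ferritin to the lysosome, averaged 1231 ± 66.0 normalized reads in the knockout, 1230 ± 94.7 in Cre controls and 1052 ± 78.6 in floxed controls and did not pass. None of 4 measured ferroxidase and hepcidin pathway genes was called, and the same list had 10 genes that were not measured. Among 5 genes of iron regulatory protein turnover, Fbxl5, the iron sensor that targets IRP2 for degradation, was higher, at 246 ± 21.1 normalized reads in the knockout, 161 ± 20.4 in Cre controls and 168 ± 5.40 in floxed controls (SD, n = 3 each; log2 fold change 0.58, limma adjusted p 0.000351). The transcript of its substrate, Ireb2, did not pass.

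Messengers outside the 10 that were listed by name for iron responsive elements were called in both directions, with 2 of 7 measured higher and 2 lower. The listing was not checked for each gene in mouse. Cdc42bpa, Epas1, Sdhb and Pfn2, the called ones, had no match to the hairpin pattern in an untranslated region. Cdc42bpa, a kinase of the actin cytoskeleton, had 354, 399 and 452 normalized reads in Vhl knockout libraries, against 16.6, 19.6 and 21.3 in Cre controls and 19.0, 19.9 and 20.4 in floxed controls. It was the largest difference in any of the iron and heme lists, at 4.295 ± 0.0907 on the log2 scale (SE, limma adjusted p 8.27e-10). Epas1, which encodes HIF-2 alpha, was higher at 0.50 (limma adjusted p 0.0273). Sdhb, a subunit of succinate dehydrogenase, was lower at -0.39 and the profilin gene Pfn2, with at most 2.56 normalized reads in any library, at -0.55. The Pfn2 value was -0.91 with a pseudocount of 0.1 and -0.20 with a pseudocount of 5, and the call was lost with the second (limma adjusted p 0.0519). It was also lost without any 1 knockout library, Cre control 2, Cre control 3 or floxed control 1. The Epas1 call was lost without knockout library 2 or 3.

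Heme transporters were called in 8 of 8 genes, with 4 higher and 4 lower. Flvcr1, a heme exporter of the cell surface in earlier work, averaged 13.4 ± 1.09 normalized reads in the knockout, 30.6 ± 1.82 in Cre controls and 29.7 ± 1.11 in floxed controls (SD, n = 3 each; log2 fold change -1.12, limma adjusted p 1.27e-06). Abcg2, an efflux pump that can carry heme and porphyrins, went the other way at 31.0 ± 1.804 in the knockout, 14.1 ± 1.63 in Cre controls and 13.03 ± 0.245 in floxed controls (log2 fold change 1.14, limma adjusted p 3.23e-06). Abcb6, a porphyrin transporter, was lower at -1.10 and Pgrmc1, a heme-binding membrane protein, higher at 0.39. The remaining calls were Flvcr2 and Pgrmc2 higher, and Slc46a1 and Abcc1 lower.

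Heme synthesis was called in 5 of 13 genes, with 1 higher and 4 lower, near the 39.8% of all genes called. Its first enzyme, Alas1, had 162, 153 and 148 normalized reads in Vhl knockout libraries, against 346, 434 and 444.5 in Cre controls and 368, 419 and 324 in floxed controls. The knockout libraries were well apart from both controls (log2 fold change -1.32 ± 0.0973, SE, limma adjusted p 4.59e-06). Downstream of heme oxygenase, Blvrb, a biliverdin reductase, averaged 41.5 ± 1.24 normalized reads in the knockout, 83.8 ± 20.3 in Cre controls and 63.1 ± 10.5 in floxed controls (SD, n = 3 each; log2 fold change -0.77, limma adjusted p 0.00228). Por, the reductase that feeds electrons to heme oxygenase, was lower at -0.40, while Blvra stood at -0.11 and did not pass. Heme and hemoglobin scavenging was called in 3 of 3 measured genes. Hp, which encodes haptoglobin, was lower at -1.83, and its libraries overlapped, with 12.6, 2.86 and 2.52 normalized reads in Vhl knockout libraries, against 16.0, 15.3 and 19.3 in Cre controls and 50.3, 21.4 and 9.715 in floxed controls. Mertk, a receptor for engulfing dead cells, was lower at -0.63, and Lrp1, the receptor for hemopexin-bound heme, higher at 0.66. The calls of Hp and Lrp1 were lost without knockout library 2 or 3.

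**Figure D4:**
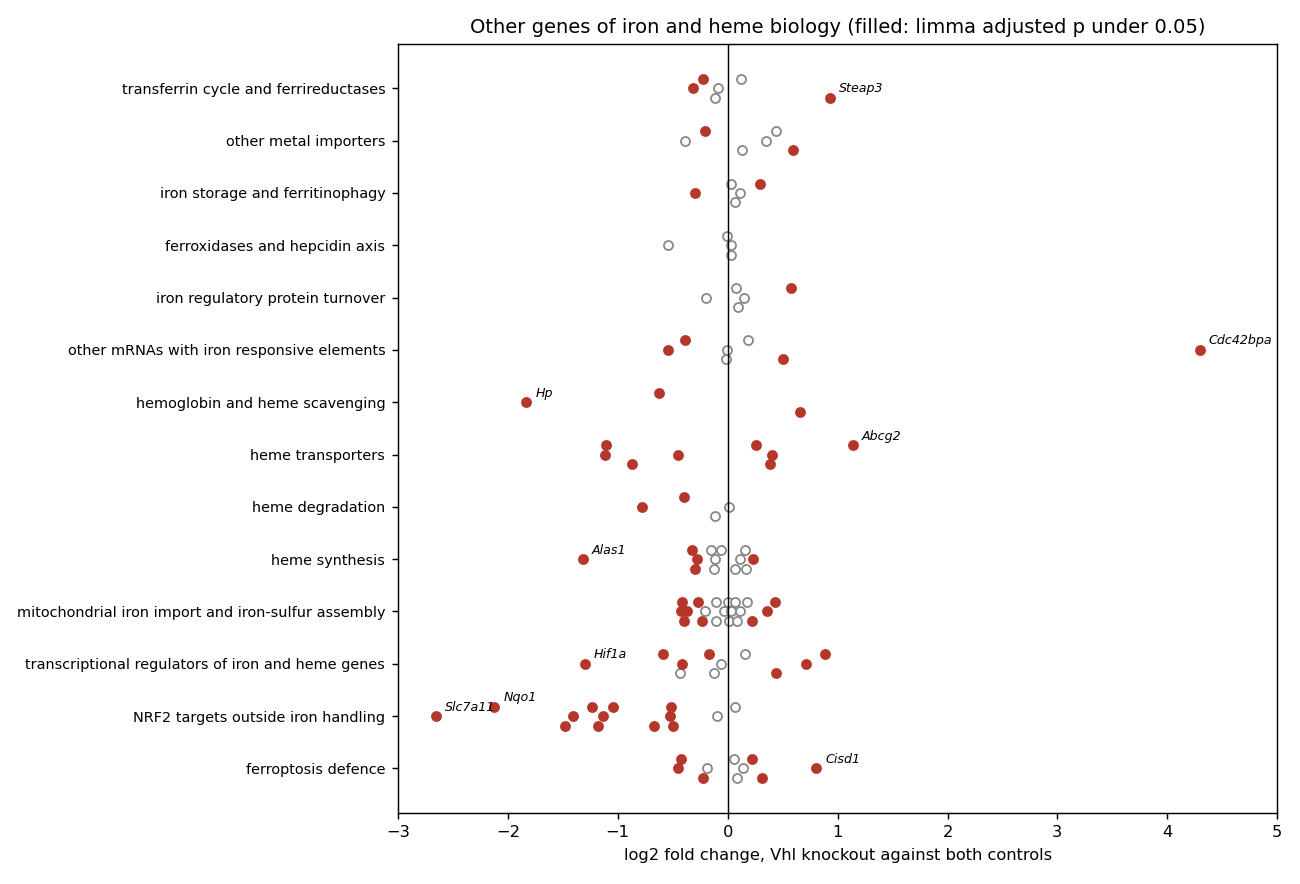
Log2 fold change of Vhl knockout against both controls (x axis) for 116 genes in 14 lists of iron and heme biology. Red filled points have a limma adjusted p under 0.05 and gray open points do not. The points of most lists fall on both sides of 0, and 12 of 14 NRF2 targets are filled on the left.

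NRF2 targets outside iron handling are shown because NRF2, with its competitor BACH1, is known to control Hmox1, both ferritin chains and Slc40a1. Of 14 measured, 12 were called lower, where 20.2% of all genes were, and 0 higher, with a median log2 fold change of -1.09. Their summed normalized reads were 1295, 1277 and 1238 in Vhl knockout libraries, against 2184, 3493 and 2997 in Cre controls and 2295, 2567 and 2119 in floxed controls. Cre controls 2 and 3, the libraries with the most Hmox1, also had the highest sums. Slc7a11, the cystine importer, averaged 24.1 ± 4.68 normalized reads in the knockout, 196 ± 93.1 in Cre controls and 137 ± 18.5 in floxed controls (SD, n = 3 each; log2 fold change -2.66, limma adjusted p 6.56e-05). Nqo1, a quinone reductase, was at -2.12 (-1.13 with a pseudocount of 5), Txnrd1, a thioredoxin reductase, at -1.48, and G6pdx, the first enzyme of the pentose phosphate pathway, at -0.52.

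Regulators of these genes were called in 7 of 11, with 3 higher and 4 lower, where 39.8% of all genes were called. Hif1a was lower, at 60.5 ± 2.57 normalized reads in the knockout, 159 ± 18.5 in Cre controls and 143 ± 0.962 in floxed controls (SD, n = 3 each; log2 fold change -1.30, limma adjusted p 4.37e-07). Bach1, Nfe2l2, which encodes NRF2, and Mafg were the other three lower genes. Keap1, the protein that holds NRF2 for degradation, was higher at 0.44, the small Maf protein gene Maff at 0.72 and Nr1h3, the liver X receptor alpha, at 0.89. Mitochondrial iron import and iron-sulfur cluster assembly had 3 higher and 6 lower of 20 measured, with fold changes under 1 on the log2 scale. Slc25a37 (mitoferrin 1), Iscu, Nubp2 and Ciapin1 were among the lower genes, and the higher ones were Nfs1, Iba57 and Nfu1. The list labelled ferroptosis defence was called higher in 3 and lower in 3 of 10 genes. It also holds genes that promote ferroptosis, among them Alox5, called higher, and Acsl4, called lower. Its counts therefore give no direction for defence. Cisd1, an iron-sulfur protein of the outer mitochondrial membrane, was higher at 0.80 and Slc3a2, the partner chain of Slc7a11, lower at -0.42, while Gpx4 stood at 0.08 and did not pass.

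Genes whose libraries deviated from their genotype means most like each iron gene were found among 9828 candidates that averaged 5 or more normalized reads. Pearson's r was taken over 9 libraries as a description, since all values share the same libraries and depth. The genes named have the highest r of all candidates, after genotype means were removed. High values of r are therefore in part a result of that selection. For Hmox1 they were Spdl1 (r = 0.978), Gdf15 (0.976) and Gm13571 (0.972). For Slc40a1 they were Polb (0.974), Fhl3 (0.972) and Cmtm4 (0.966). For Tfrc they were 3110053B16Rik (0.977), Gpsm1 (0.976) and Setdb1 (0.974). Of these 9 genes 3 were called lower in the knockout, Spdl1 at -0.90, Gdf15 at -0.78 and Fhl3 at -0.69 on the log2 scale. The other 6 did not pass, with log2 fold changes between -0.03 and 0.33.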

How the data were processed

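RNA of lavage cells was sequenced as single reads of 61 bases. The tools named per the submitters' processing notes are RSEM 1.2.3, cutadapt 1.3 and CASAVA 1.8.2, with build GRCm38. For the strand setting, annotation and scaling, the steps taken were not given in the sources used here. Deposited was 1 table of a signal per gene, made by the authors, whose values are whole reads times 1 factor per library. All values (100%) came out whole within 0.01 read. A single read is worth 0.0400 to 0.0565 normalized reads, and the limit set by a 0, taken as 3 reads, is 0.120 to 0.170 (counting error only). Each gene had at least 0.962 in at least 3 libraries, and lower genes are not analysed here. GENCODE M21 gave symbols for 11935 of 12003 identifiers.

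Values were tested as log2(value + 1), which understates changes of low genes, with limma 3.58.1 in R 4.3.3. The model had 1 mean per genotype over all 9 libraries and a trend, and two-sided p-values were adjusted by the Benjamini-Hochberg method over all genes. The p-values reflect how much pools differ, and no label says that pools were made on separate days. EdgeR 4.0.16 (quasi-likelihood) and DESeq2 1.42.0 on the recovered reads, other pseudocounts, scalings and filters, and leaving out libraries were alternatives. Against both controls limma called 4781 genes, edgeR 4757 and DESeq2 4925. The limma code was tested on simulated data.

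The 10 genes and the lists were chosen with earlier results of these data known. Named were the 10 genes, Vhl, from each iron and heme list at most 4 called genes (lowest adjusted p) and at most 2 with a mean of 5 or more that did not pass, and the 3 nearest patterns of Hmox1, Slc40a1 and Tfrc. Members of a list that are named without a value, and marker genes beside a result, are outside this rule. Principal transcripts were the lowest-numbered APPRIS principal ones. Some genes of the lists are counted and not reported here by name.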

Additional observations from a re-analysis of the deposited data

How the results depend on the processing

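Counts of iron and heme genes called lower stayed within 1.5 times the reported ones. Leaving out 1 library at a time gave 7 to 8 of 10 against both controls, 7 to 9 against Cre controls and 6 to 7 against floxed controls. Between Cre controls and floxed controls it gave 0 to 1 of 10, and leaving out the 3 libraries numbered 1, an alternative chosen after seeing the data, gave 1, Hmox1 (0.86, limma adjusted p 0.0196). Over all genes that contrast had 20 calls, 13 without Cre control 3 as the lowest and 31 without Cre control 1 as the highest with 1 library left out, 74 with DESeq2, 11 with only the libraries of the contrast, and 147 without the libraries numbered 1. With the replicate number as a block it had 71 calls, while the block called 8, 8, 7 and 0 of the 10 genes against both, Cre and floxed controls and between the controls. Replicate numbers are not stated to mark a shared day or litter, and the deviations of same-numbered libraries correlated between -0.0817 and 0.575, so not every library was nearest to its own number. Without the libraries numbered 1, Aco1 was also not called against floxed controls. Ftl1 against Cre controls passed as well without the authors' scaling factor (adjusted p 0.0300) and without the trend (0.0487). Over 2042 values of 106 results, 1971 stayed called or stayed not called, 56 lost the call, 15 gained one, and 0 called values changed sign. Among the 1971 were 52 values, called in neither setting, that changed sign around 0, the largest of size 0.0648. The cause of these changes was not tested. Scaling moved the median of all genes to at most -0.0484. With 3 pools per genotype, small differences such as those of Ftl1 are limited by the spread between pools and not by depth.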

Other observations

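Beyond the 10 genes, 27 genes of the table held a hairpin of the same pattern in an untranslated region. Of these, 8 were called higher and 5 lower in Vhl knockout macrophages, where 19.7% of all genes were higher and 20.2% lower. The median log2 fold change of the 27 was -0.0071. The 2 examples that follow were chosen after their values were seen. Cxcl16, a chemokine and scavenger receptor gene with a match in its 3′ untranslated region, averaged 9.17 normalized reads in the knockout, 31.1 in Cre controls and 33.8 in floxed controls (log2 fold change -1.70, limma adjusted p 6.72e-05). Kdm5c, a histone demethylase gene with a match in its 3′ untranslated region, averaged 213 normalized reads in the knockout, 175 in Cre controls and 170 in floxed controls (log2 fold change 0.31, limma adjusted p 0.00125). The hairpins are matches of letters and pairs, and binding of an iron regulatory protein to them was not measured.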
